A study of Bos taurus with 9 samples.

Results

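The genes described here are the insulin-like growth factors IGF1 and IGF2, their signalling receptor IGF1R and the binding proteins IGFBP2 to IGFBP7. They were chosen by name: every probe set whose only gene symbol on the platform is one of these 9 symbols was taken, whatever its signal. This gave 17 probe sets for 9 genes, of 13292 probe sets with 1 symbol for 9155 genes. IGF1 and IGF2 have 4 probe sets each, IGF1R and IGFBP3 have 2 each, and the other binding proteins have 1 each. All 17 sets were tested, and none was removed for low signal.

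RNA from bovine cells was measured on 9 single-colour expression arrays, 1 per sample, in 3 groups of 3. The first group, chondrocytes at day 28, came from articular cartilage of calves 3 to 6 months old, were seeded in agarose directly after isolation, and were cultured for 28 days in a chemically defined medium with 10 ng/mL TGF-beta3. The second, MSCs at day 28, were mesenchymal stem cells from bone marrow of the same calves, seeded in agarose and cultured in the same way. The third, MSCs at day 0, were the marrow cells harvested right after they were seeded in agarose. Each group holds 1 sample of each of 3 donors, and donor numbers match across groups. No MSCs cultured without TGF-beta3 and no chondrocytes at day 0 were analysed here, so for the MSCs the growth factor, the medium and the time in culture cannot be told apart, and between chondrocytes and MSCs at day 0 the cell source cannot be told apart from them either.

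IGF1 and IGF2 act through IGF1R, a receptor tyrosine kinase that signals through PI3-kinase and AKT and through the RAS and MAP kinase route. In cartilage, IGF1 is known as a factor that drives chondrocytes to make proteoglycan and collagen. The binding proteins hold IGFs in solution, in the matrix and at the cell surface, and release them when proteases cut the binding protein, so that they can either limit or prolong IGF action. IGFBP7 is the odd member, with a much lower affinity for IGFs than the others.

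Values are log2 RMA signals, so that a difference of 1 is a change of 1 doubling. Group differences were taken within a probe set, or within the average of a gene's sets where this is said. Signals of different probe sets were ranked against all sets to call a signal low, and were added in the marker sums. Differences carry the standard error of the linear model, and a probe set was called when its limma adjusted p, corrected over all 24016 probe sets tested, was under 0.05. The 3 comparisons share groups of arrays and are not independent of each other.

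Both day 28 arrays of donor 3 had low hybridisation controls, at 9.98 and 10.01 on the log2 scale against 11.40 to 11.82 on the other 7. The control transcripts had a larger excess of 3′ over 5′ signal at day 28 than at day 0: 1.75 ± 0.14 in chondrocytes and 1.81 ± 0.18 in MSCs at day 28, against 1.36 ± 0.18 in MSCs at day 0 (SD, n = 3 each). Each of these comparisons with day 0 had an exact two-sided permutation p of 0.1, the smallest that 3 against 3 allows, or 0.15 adjusted over 3 tests. The part of this difference in the results was not tested.

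The binding proteins changed most. After 28 days IGFBP5 was about 32-fold to 34-fold higher in both cultured groups than in MSCs at day 0, whereas IGFBP2, IGFBP3, IGFBP4 and IGFBP6 were lower in both, and IGFBP7 was not called in any comparison. The ligand IGF1 was slightly lower in both cultured groups, at a low signal. IGF2 and IGF1R gave low signals in all groups and were not called. Between chondrocytes and MSCs at day 28, none of the 17 probe sets was called.

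IGFBP5, a binding protein that also attaches to the extracellular matrix, read 12.16, 11.60 and 11.96 in chondrocytes at day 28 (donors 1, 2 and 3), 11.77, 11.76 and 11.97 in MSCs at day 28, and 7.57, 7.27 and 5.68 in MSCs at day 0. All 6 cultured samples lay above all 3 samples at day 0, and the cultured groups overlapped each other. The mean log2 signal was 11.90 ± 0.28 in chondrocytes, 11.83 ± 0.12 in MSCs at day 28 and 6.84 ± 1.02 in MSCs at day 0 (SD, n = 3 each). MSCs at day 28 exceeded MSCs at day 0 by 4.996 ± 0.42 (SE), a 31.9-fold higher signal (adjusted p = 5.11e-05). Chondrocytes exceeded MSCs at day 0 by 5.07 ± 0.42, or 33.5-fold (adjusted p = 4.03e-05). IGFBP5 was the only one of these genes called higher, in 3 of 3 donors each time. Its difference ranked 57 from the top of 24016 probe sets for MSCs at day 28 against day 0. Donor 3, the lowest at day 0, had the largest rise in MSCs, 6.30 on the log2 scale, against 4.20 in donor 1 and 4.49 in donor 2. Chondrocytes and MSCs at day 28 differed by 0.07, with a 95% interval of -0.87 to 1.01 (adjusted p = 0.951).

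IGFBP2, a binding protein that can also bind integrins, had log2 signals of 6.26, 8.13 and 6.12 in chondrocytes at day 28, 6.17, 7.43 and 5.12 in MSCs at day 28, and 11.33, 10.31 and 9.74 in MSCs at day 0. No cultured sample reached the lowest sample at day 0. Donor 2 was the highest in both cultured groups but not at day 0. IGFBP2 fell by 4.22 ± 0.70 on the log2 scale in MSCs at day 28 relative to day 0, so that the signal at day 0 was 18.6-fold higher (adjusted p = 0.00175). The within-donor falls in MSCs were 5.16, 2.88 and 4.62 for donors 1, 2 and 3. Chondrocytes were lower than MSCs at day 0 by 3.63 ± 0.70 on the log2 scale, 12.4-fold (adjusted p = 0.00398). Chondrocytes were above MSCs at day 28 in 3 of 3 donors, but the groups overlapped and the mean difference of 0.59 was not called (95% interval -0.98 to 2.16, adjusted p = 0.690).

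IGFBP4, known mainly as an inhibitor of IGF action, had log2 signals of 5.80, 6.32 and 6.11 in chondrocytes at day 28, 7.57, 6.83 and 6.08 in MSCs at day 28, and 9.72, 9.36 and 9.66 in MSCs at day 0. Both cultured groups lay wholly below day 0. It fell by 2.76 ± 0.33 on the log2 scale in MSCs at day 28 relative to day 0 (6.75-fold, adjusted p = 3.06e-04), and chondrocytes were lower than MSCs at day 0 by 3.50 ± 0.33 (11.3-fold, adjusted p = 8.21e-05). Chondrocytes differed from MSCs at day 28 by -0.75 (95% interval -1.49 to -0.01), which was not called (adjusted p = 0.202). That comparison depended on 1 array: without MSC replicate 3 at day 28, which read 6.08, the difference was -1.12 with an adjusted p of 0.0266.

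IGFBP6, which binds IGF2 in preference to IGF1, had log2 signals of 7.79, 8.20 and 7.19 in chondrocytes at day 28, 6.54, 8.09 and 7.03 in MSCs at day 28, and 9.40, 10.75 and 9.66 in MSCs at day 0. Every cultured sample was below every sample at day 0, and donor 2 was the highest in each of the 3 groups. The fall in MSCs was nearly the same in each donor, at 2.86, 2.66 and 2.63 on the log2 scale, with a mean fall of 2.72 ± 0.46 (6.58-fold, adjusted p = 0.00207). In chondrocytes the level was lower than in MSCs at day 0 by 2.21 ± 0.46 (4.64-fold, adjusted p = 0.00622). The difference between chondrocytes and MSCs at day 28, 0.50 with a 95% interval of -0.54 to 1.55, was not called (adjusted p = 0.589).

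IGFBP3, the main carrier of IGFs in blood, has 2 probe sets, which ran together over the 9 arrays (Pearson r of 0.970, a description over arrays that fall into 3 groups). The first set, of higher mean, had log2 signals of 5.12, 5.19 and 5.72 in chondrocytes at day 28, 5.80, 8.23 and 5.98 in MSCs at day 28, and 8.11, 8.81 and 8.26 in MSCs at day 0. The second set had 4.23, 4.92 and 4.17 in chondrocytes at day 28, 4.75, 7.07 and 4.64 in MSCs at day 28, and 7.34, 8.21 and 7.79 in MSCs at day 0. In both sets the chondrocytes were lowest on average, although in the second they overlapped MSCs at day 28, and among MSCs at day 28 donor 2 stood well above the other 2 donors. By the first set this sample overlapped the day 0 group, and by the second set it did not.

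Chondrocytes were lower than MSCs at day 0 by 3.05 ± 0.56 on the log2 scale in the first set of IGFBP3 (8.27-fold, adjusted p = 0.00324) and by 3.34 ± 0.58 in the second (10.1-fold, adjusted p = 0.00242). For MSCs at day 28 against day 0 the falls were smaller, 1.72 ± 0.56 (adjusted p = 0.0449) and 2.29 ± 0.58 (adjusted p = 0.0155). The first of these calls was lost in 11 of 20 alternative analyses, with adjusted p from 4.09e-04 to 0.156, and the second in 3 of 20, with adjusted p up to 0.0677. Against MSCs at day 28, chondrocytes were lower in 3 of 3 donors, by 0.67, 3.05 and 0.25 in the first set, so that most of the mean difference of -1.32 came from donor 2 (95% interval -2.59 to -0.06, adjusted p = 0.186).

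IGFBP7 had log2 signals of 11.18, 11.65 and 11.17 in chondrocytes at day 28, 11.38, 10.64 and 10.86 in MSCs at day 28, and 11.78, 10.71 and 9.97 in MSCs at day 0. The groups overlapped in every comparison. The differences were 0.14 ± 0.41 for MSCs at day 28 against day 0 (95% interval -0.78 to 1.05, adjusted p = 0.841), 0.37 for chondrocytes against MSCs at day 28 (-0.54 to 1.29, adjusted p = 0.658) and 0.51 for chondrocytes against MSCs at day 0 (-0.40 to 1.43, adjusted p = 0.386). These intervals still allow changes of about 1 on the log2 scale. Leaving out MSC replicate 1 at day 0, the highest of its group, turned the last difference into 0.99 with an adjusted p of 0.0468. Donors disagreed in direction: in MSCs, donor 1 was lower at day 28 by 0.41 and donor 3 was higher by 0.89.

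**Figure D1:**
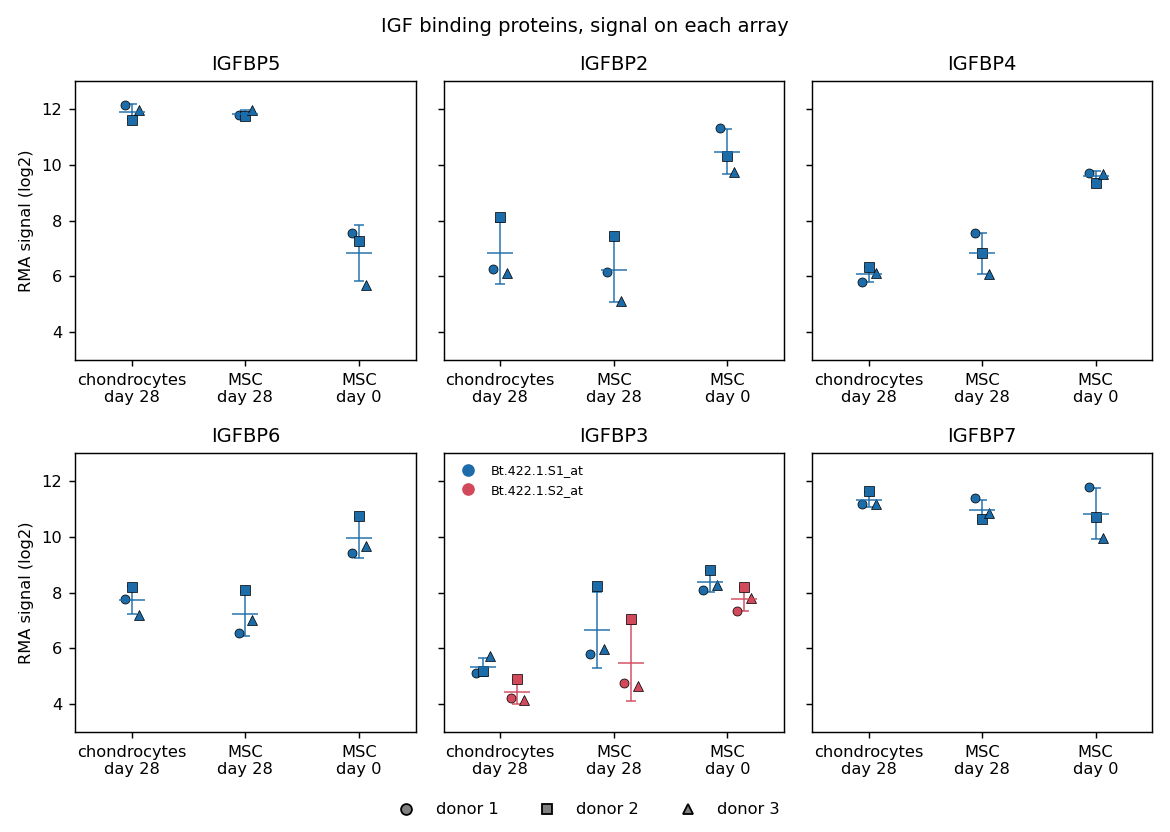
Log2 RMA signal of each binding protein on each array, in chondrocytes at day 28, MSCs at day 28 and MSCs at day 0. Points are donors, and bars show the mean and SD of 3 samples. IGFBP5 is high in both cultured groups, at 11.90 and 11.83 on average, IGFBP2, IGFBP4 and IGFBP6 lie below all day 0 samples in both, and IGFBP3 has a high donor 2 among MSCs at day 28.

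The order of the group means therefore differed between the binding proteins. For IGFBP5 the cultured groups came first and did not differ beyond their spread. For IGFBP3 and IGFBP4 the order was MSCs at day 0, MSCs at day 28, then chondrocytes, and for IGFBP2 and IGFBP6 it was MSCs at day 0, chondrocytes, then MSCs at day 28. In each case the 2 cultured groups were neighbours whose difference was not called.

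IGF1 gave low signals in all 4 of its probe sets, whose means over the 9 arrays were all below 4.99, the median of such means. Values recurred: 3 of the 4 sets held a value shared by 2 or more arrays, as did 58.6% of all probe sets at or below the median and 13.1% of those above it, and equal values carry no order. In all 4 sets the mean was highest at day 0, by different amounts.

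The A1 set of IGF1, named for the end of its probe set identifier, which had 9 distinct values, was the clearest. Its log2 signal was 3.61, 3.79 and 3.38 in chondrocytes at day 28, 3.58, 3.89 and 3.35 in MSCs at day 28, and 4.55, 4.48 and 4.50 in MSCs at day 0. The day 0 samples were all above the cultured samples and close to each other. It was lower in MSCs at day 28 than at day 0 by 0.90 ± 0.17 on the log2 scale (1.87-fold, adjusted p = 0.00341) and lower in chondrocytes than in MSCs at day 0 by 0.91 ± 0.17 (1.88-fold, adjusted p = 0.00328). Both calls held in every alternative analysis that tested the set. The sources used here did not give the orientation of A1 and S1 sets. They were treated alike as sets of their gene, here and for IGF2 and IGF1R.

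In the other IGF1 sets the calls were weaker. The set of highest mean, S1_a, had log2 signals of 3.82, 3.82 and 3.52 in chondrocytes at day 28, 3.66, 3.81 and 3.82 in MSCs at day 28, and 3.96, 4.66 and 4.25 in MSCs at day 0. Its differences were -0.52 ± 0.19 for MSCs at day 28 against day 0, not called (adjusted p = 0.0649), and -0.57 ± 0.19 for chondrocytes against MSCs at day 0, called at an adjusted p of 0.0473 but lost in 15 of 19 alternatives. The S1_x set, whose suffix marks probes that may also match other sequences, differed by -0.38 ± 0.12 (adjusted p = 0.0425, lost in 14 of 18 alternatives) and -0.32 ± 0.12 (adjusted p = 0.0814). The remaining S1 set differed by -0.74 ± 0.32 and -0.72 ± 0.32 and was not called (adjusted p = 0.116 and 0.118). All 4 sets were lower in 3 of 3 donors in both comparisons with day 0. Averaged over its 4 sets, IGF1 was lower by 0.64 ± 0.15 in MSCs at day 28 than at day 0 (adjusted p = 0.0121) and by 0.63 ± 0.15 in chondrocytes than in MSCs at day 0 (adjusted p = 0.0128). Chondrocytes and MSCs at day 28 differed by at most 0.07 in any set, and none was called (adjusted p from 0.825 to 0.989).

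IGF2, the second ligand, was not called in any of its 4 sets or 3 comparisons, and its sets did not run together (Pearson r from -0.32 to 0.60 over the 9 arrays, as a description). The set of highest mean had log2 signals of 5.02, 4.54 and 3.82 in chondrocytes at day 28, 3.61, 3.30 and 4.11 in MSCs at day 28, and 4.20, 3.70 and 3.32 in MSCs at day 0. Chondrocytes of donors 1 and 2 were above every MSC sample, and those of donor 3 were not. The difference from MSCs at day 28 was 0.78 ± 0.34 (95% interval 0.01 to 1.56, adjusted p = 0.198) and from MSCs at day 0 it was 0.72 ± 0.34 (95% interval -0.05 to 1.49, adjusted p = 0.145), higher in 3 of 3 donors. Without both day 28 arrays of donor 3 these became 1.32 (adjusted p = 0.0460) and 1.04 (adjusted p = 0.0315). MSCs at day 28 and day 0 differed by -0.06 (95% interval -0.83 to 0.71, adjusted p = 0.915).

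The other IGF2 sets were at low signals too. The A1 set of IGF2 was lower in chondrocytes than in MSCs at day 0 by 0.49 ± 0.20, with groups that did not overlap, and was not called (adjusted p = 0.0938). The S1_a set of IGF2 had 4.22, 3.47 and 2.47 in chondrocytes at day 28, 3.30, 3.23 and 2.94 in MSCs at day 28, and 3.27, 2.81 and 3.27 in MSCs at day 0. Here too chondrocytes of donors 1 and 2 were above every MSC sample, while those of donor 3 were below all of them, so that the chondrocytes spanned the whole range of the 9 arrays. Its differences, 0.23 from MSCs at day 28 (adjusted p = 0.792) and 0.27 from MSCs at day 0 (adjusted p = 0.627), were not called. The remaining S1 set of IGF2 stayed between 1.81 and 2.28 on all arrays.

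IGF1R, the receptor, had 2 sets of low signal. The S1 set had log2 signals of 2.83, 3.15 and 3.11 in chondrocytes at day 28, 2.86, 3.15 and 2.90 in MSCs at day 28, and 3.34, 3.16 and 4.09 in MSCs at day 0. The day 0 samples were the higher ones, by a margin that in donor 2 was only 0.01. The differences of -0.56 ± 0.24 for MSCs at day 28 against day 0 (adjusted p = 0.106), 0.06 ± 0.24 for chondrocytes against MSCs at day 28 (adjusted p = 0.920) and -0.50 ± 0.24 for chondrocytes against MSCs at day 0 (adjusted p = 0.144) were not called. The second set, A1, had 6 distinct values over the 9 arrays and went the opposite way, with differences of 0.18 and 0.14 against day 0 and -0.04 between the cultured groups (adjusted p from 0.465 to 0.920). The 95% interval of the first set for MSCs at day 28 against day 0 was -1.09 to -0.03, so that the size of any change in the receptor's transcript is poorly bounded here.

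**Figure D2:**
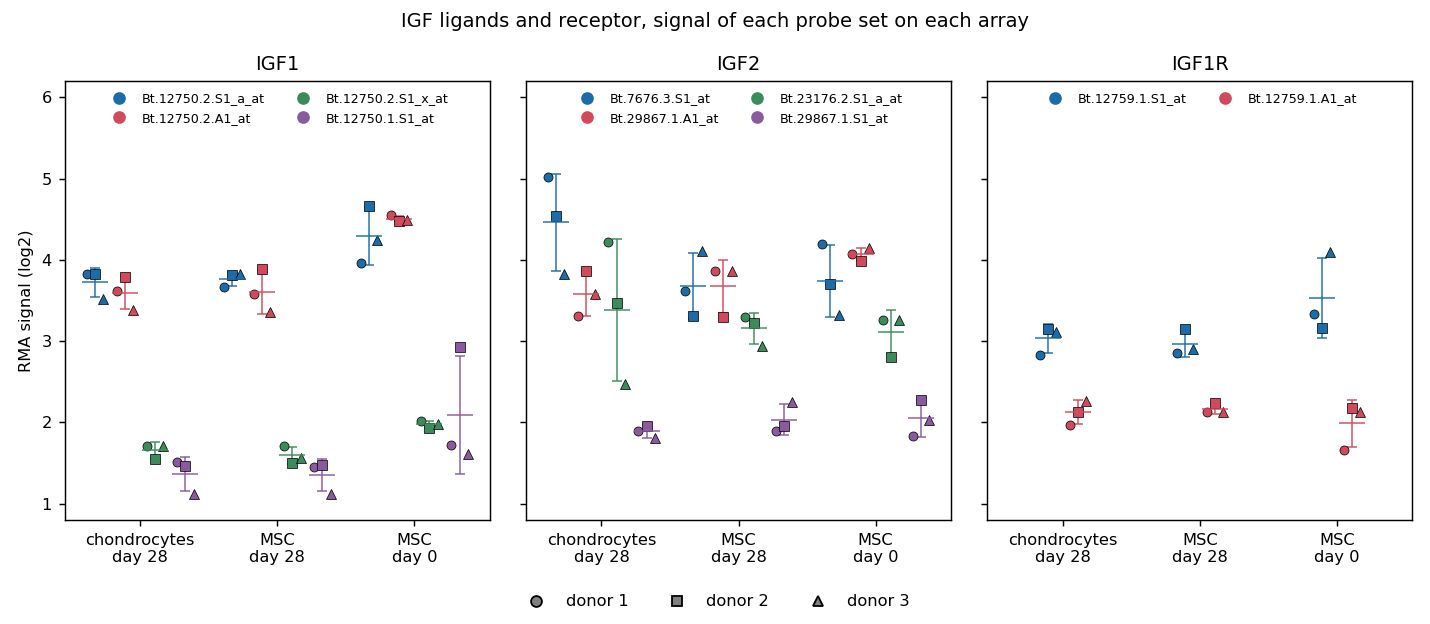
Log2 RMA signal of each probe set of IGF1, IGF2 and IGF1R on each array, in chondrocytes at day 28, MSCs at day 28 and MSCs at day 0, with colours for probe sets, point shapes for donors, and bars for the mean and SD of 3 samples. All 4 IGF1 sets are highest on average at day 0, the IGF2 sets disagree, and 1 IGF2 set reaches 5.02 in chondrocytes of donor 1.

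Counted over the 17 probe sets, 1 was higher and 7 were lower in MSCs at day 28 than at day 0, where 14.6% and 15.6% of all probe sets were called higher and lower. In chondrocytes against MSCs at day 0, 1 was higher and 7 were lower, where the shares over all probe sets were 15.1% and 15.9%. In chondrocytes against MSCs at day 28, 0 were called in either direction by limma, where the shares were 6.27% higher and 4.06% lower, and 3 of the 17 had an unadjusted p under 0.05, against 24.2% of all probe sets. With 1 set per gene, the one of highest mean, 1 of 9 genes was higher and 4 were lower in MSCs at day 28 than at day 0 (13.5% and 21.0% of all genes), 0 of 9 differed between chondrocytes and MSCs at day 28 (8.35% higher and 4.81% lower among all genes), and 1 was higher and 5 were lower in chondrocytes than in MSCs at day 0 (15.1% and 20.9%). The sets of IGF1 and of IGFBP3 share a gene, so the 17 are not separate observations. The median log2 difference of the 17 sets was -0.52 for MSCs at day 28 against day 0, -0.50 for chondrocytes against MSCs at day 0 and 0.01 between the cultured groups, beside -0.06, -0.07 and -0.03 over all probe sets.

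**Figure D3:**
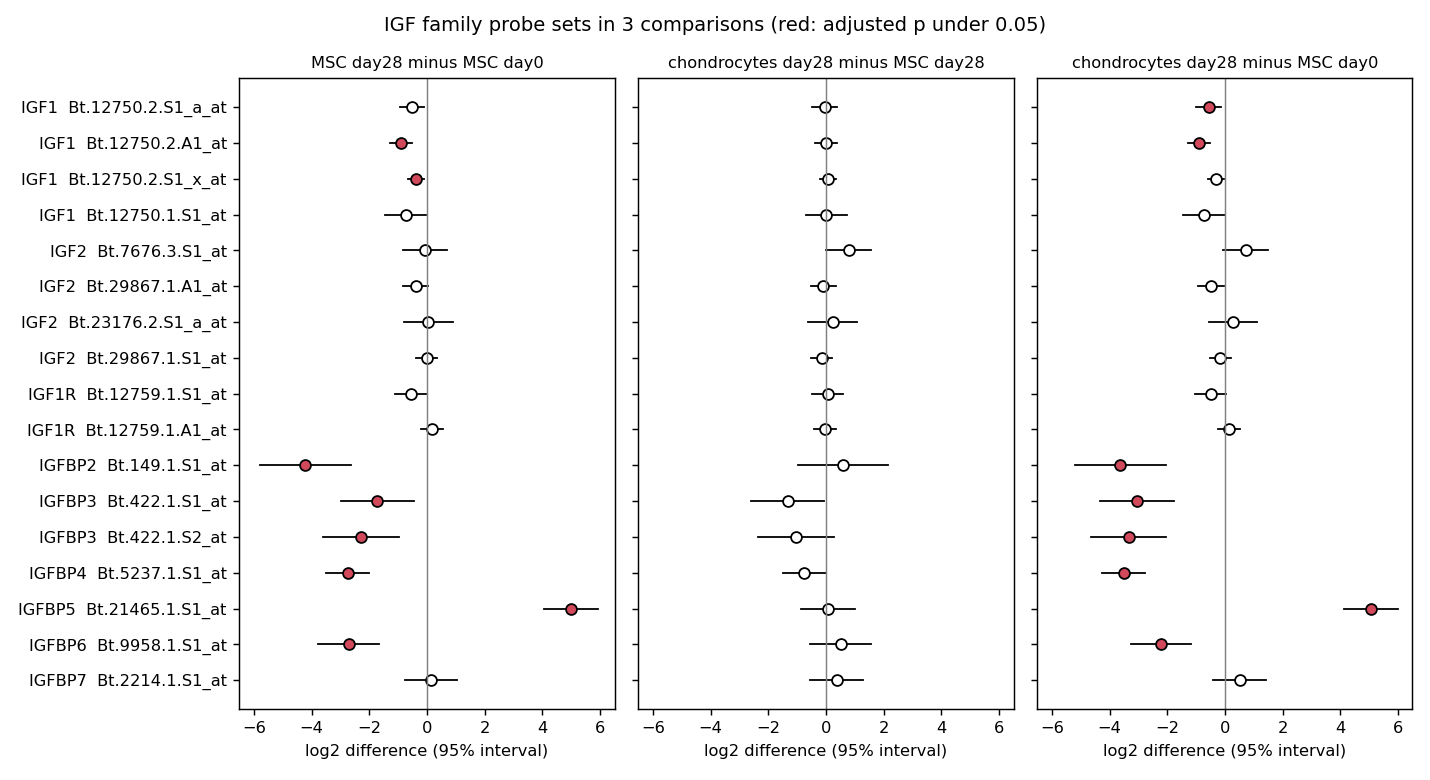
Log2 difference and 95% interval of the 17 probe sets in 3 comparisons, with called sets in red. Against MSCs at day 0, IGFBP5 lies at 4.996 in cultured MSCs and 5.07 in chondrocytes while IGFBP2, IGFBP3, IGFBP4 and IGFBP6 lie below 0, and between the cultured groups no set is called.

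The labelled cell types were checked against marker lists. Over all genes, 13.5% were higher and 21.0% lower in MSCs at day 28 than at day 0. For chondrocytes against MSCs at day 0 these shares were 15.1% and 20.9%. All 8 measured cartilage markers were higher in both cultured groups than in MSCs at day 0, COL2A1, the chain of type II collagen, averaging 13.73 in chondrocytes, 13.69 in MSCs at day 28 and 7.73 in MSCs at day 0. Of 10 marrow stroma markers, 3 were lower and 1 was higher in MSCs at day 28 than at day 0. The lower ones were CXCL12 (by 4.07), CD44 (2.22) and NT5E (0.81), and the higher one was MCAM (1.49). The surface proteins THY1 and ENG, not called there, were above the 25th percentile of probe sets in all groups, and LEPR was below it in all. Of 10 blood cell markers, 4 were lower and 1 was higher in MSCs at day 28 than at day 0, and 4 were lower and 2 were higher in chondrocytes than in MSCs at day 0. The log2 of their summed signal ranged from 8.84 to 9.15 in chondrocytes and 8.51 to 8.67 in MSCs at day 28. In MSCs at day 0 it ranged from 9.11 to 9.69. PTPRC, HBB, CD3E and CD79A, the defining markers of leukocytes, red cells, T cells and B cells, were below the 25th percentile in all groups. The 4 lower in MSCs at day 28 than at day 0 were CTSS, CD68, TYROBP and AIF1. They averaged 9.07, 5.42, 4.85 and 4.22 at day 0. The 1 higher was CSF1R, at 6.01 in MSCs at day 28 and 4.39 at day 0. Of 5 smooth muscle markers, 4 were lower in MSCs at day 28 than at day 0, with log2 summed signals of 8.97 to 9.47 in MSCs at day 28 and 13.06 to 13.72 at day 0, and in chondrocytes, at 10.69 to 11.71, 3 were lower than in MSCs at day 0. Of 5 adipocyte markers, 2 were higher and 1 was lower in MSCs at day 28 than at day 0, and 1 was higher and 1 lower in chondrocytes than in MSCs at day 0. The log2 of their summed signal was 9.13 to 9.52 in chondrocytes, 9.17 to 10.49 in MSCs at day 28 and 10.46 to 11.13 in MSCs at day 0, with the lipid carrier FABP4 lower and the lipase LPL higher in both cultured groups than at day 0, and the adipokines ADIPOQ and LEP below the 25th percentile in all groups. Of 5 osteoblast markers, 2 were higher and 0 lower in each cultured group than at day 0, among them the alkaline phosphatase ALPL, while the log2 summed signal was 12.87 to 13.25 in chondrocytes, 13.21 to 13.38 in MSCs at day 28 and 13.08 to 13.48 in MSCs at day 0. The larger part of this sum came from IBSP, which averaged 12.71, 12.89 and 12.80 in these groups. ALPL averaged 7.81, 8.91 and 2.96 in them. Of 9 endothelial markers, 2 were higher in MSCs at day 28 and 3 in chondrocytes than at day 0, and 0 were lower. TEK and ERG, the 2 in MSCs, were higher by 2.22 and 0.72, while CDH5 and KDR were below the 25th percentile in all groups. The log2 summed signals of this list were 8.89 to 9.11 in chondrocytes, 8.53 to 8.69 in MSCs at day 28 and 7.53 to 8.04 at day 0. Of 6 skeletal muscle markers, 1 was higher and 1 lower in each cultured group than at day 0. The log2 summed signals were 10.81 to 11.05 in chondrocytes, 11.40 to 11.98 in MSCs at day 28 and 11.37 to 11.50 at day 0. Most of each sum came from CKM, which averaged 10.83, 11.65 and 11.35 in these groups. ACTA1 and MYL1 were below the 25th percentile in all groups. Called members of these lists moved with the falls of IGFBP2, IGFBP3, IGFBP4, IGFBP6 and IGF1 and with the rise of IGFBP5, and their part in those results was not tested. In bulk RNA, fewer cells of a type and less RNA per cell cannot be told apart.

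Without both day 28 arrays of donor 3, those of low hybridisation controls, the log2 differences of MSCs at day 28 against day 0 were 4.93 for IGFBP5, -3.66 for IGFBP2, -2.38 for IGFBP4, -2.62 for IGFBP6 and -0.78 for the A1 set of IGF1, all still called (adjusted p from 8.18e-04 to 0.0108), whereas neither IGFBP3 set was called (adjusted p = 0.156 and 0.0677). The differences of chondrocytes against MSCs at day 0 were 5.04 for IGFBP5, -3.27 for IGFBP2, -3.24 and -3.21 for the IGFBP3 sets, -3.52 for IGFBP4, -1.95 for IGFBP6 and -0.81 for the A1 set of IGF1, all called (adjusted p from 1.96e-04 to 0.0316).

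Of 17 listed genes of other extracellular parts of the system, 9 had a named probe set, and 0 were higher and 2 lower in MSCs at day 28 than at day 0, 3 were higher and 0 lower in chondrocytes than in MSCs at day 28, and 0 were higher and 1 lower in chondrocytes than in MSCs at day 0. Over all genes the shares higher and lower were 13.5% and 21.0%, 8.35% and 4.81%, and 15.1% and 20.9% in these 3 comparisons. In this and the later lists, each gene was counted by its set of highest mean. HTRA1, a secreted serine protease known to cut IGFBP5, had log2 signals of 12.52, 12.70 and 12.49 in chondrocytes at day 28, 11.45, 11.77 and 11.34 in MSCs at day 28, and 12.29, 12.40 and 12.28 in MSCs at day 0. It was thus lowest in MSCs at day 28, with no overlap: 0.80 ± 0.15 below MSCs at day 0 on the log2 scale (adjusted p = 0.00295) and 1.05 ± 0.15 higher in chondrocytes (adjusted p = 0.00228).

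ADAM12, a metalloprotease that cuts IGFBP3 and IGFBP5, had the same order of groups as HTRA1. Its log2 signal was 5.94, 5.96 and 6.33 in chondrocytes at day 28, 4.69, 4.76 and 5.14 in MSCs at day 28, and 5.86, 5.85 and 5.62 in MSCs at day 0. MSCs at day 28 were 0.91 ± 0.17 below day 0 (adjusted p = 0.00368), and chondrocytes were 1.21 ± 0.17 above MSCs at day 28 (adjusted p = 0.00259). Chondrocytes against MSCs at day 0 were not called for either protease.

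STC1, a glycoprotein of the stanniocalcin family known to inhibit the IGFBP4 protease PAPPA, was higher in chondrocytes than in MSCs at day 28 by 0.88 ± 0.22 on the log2 scale (adjusted p = 0.0328), at low signals of 2.95 against 2.07 on average, and the call was lost in 6 of 18 alternatives. IGFALS, the acid-labile subunit that binds IGFBP3 and IGF in the circulating complex, was lower in chondrocytes than in MSCs at day 0 by 0.89 (adjusted p = 0.0116, lost in 1 of 19 alternatives), but its second probe set, at -0.12, was not called. IGF2R, which takes up IGF2 for degradation, averaged 9.51 in chondrocytes, 9.16 in MSCs at day 28 and 9.21 in MSCs at day 0 and was not called. PAPPA, IGFBP1 and VTN were not called either by their sets of highest mean, while a further PAPPA set was lower in chondrocytes than in MSCs at day 0 by 0.39 (adjusted p = 0.0421), at mean signals of 1.86 against 2.25. INSR, the insulin receptor, was not called by its set of highest mean, while one further set was higher by 1.23 (adjusted p = 0.00262) and another by 0.83 (adjusted p = 0.0202) in MSCs at day 28 than at day 0, at mean signals of 2.66 against 1.44 and 2.64 against 1.81. The same sets were higher in chondrocytes than in MSCs at day 0, by 0.71 (adjusted p = 0.0354) and 0.75 (adjusted p = 0.0314).

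Inside the cell, 22 of 40 listed signalling genes were measured. In MSCs at day 28 against day 0, 2 were higher and 4 lower, between the cultured groups 0 were called, and in chondrocytes against MSCs at day 0, 1 was higher and 3 were lower. Among all genes 13.5% were higher and 21.0% lower in the first of these comparisons, 8.35% and 4.81% between the cultured groups, and 15.1% and 20.9% in the last. TSC1, a part of the complex that restrains mTORC1, averaged 5.40 in chondrocytes, 6.37 in MSCs at day 28 and 4.003 in MSCs at day 0 on the log2 scale. It was higher by 2.37 in MSCs at day 28 (adjusted p = 3.06e-04) and by 1.40 in chondrocytes (adjusted p = 0.00523) than in MSCs at day 0. PIK3CA, a catalytic subunit of PI3-kinase, averaged 7.88 in chondrocytes, 8.20 in MSCs at day 28 and 9.19 in MSCs at day 0, and was lower than at day 0 by 0.99 in MSCs (adjusted p = 0.00214) and by 1.31 in chondrocytes (adjusted p = 4.79e-04). Its second probe set was lower in both as well, by 1.32 and 1.27 (adjusted p = 3.46e-04 and 4.36e-04).

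Among the other signalling genes, the adaptor SHC1 was lower in MSCs at day 28 than at day 0 by 0.56 (adjusted p = 0.0123, lost in 1 of 20 alternatives), and the GTPase HRAS was lower by 0.71 in MSCs (adjusted p = 0.0309, lost in 6 of 20) and by 0.99 in chondrocytes (adjusted p = 0.00705). Both further SHC1 sets were lower in MSCs, by 0.84 and 1.63 (adjusted p = 0.0102 and 0.00412). In chondrocytes against MSCs at day 0 they were lower by 0.46, not called (adjusted p = 0.107), and 1.28 (adjusted p = 0.0135). Further sets of GSK3B and AKT2 were lower there too, by 1.19 and 0.49 (adjusted p = 0.00845 and 0.0391), where the other sets of both genes were not called. MAPK3, the kinase ERK1, was lower in chondrocytes than in MSCs at day 0 by 0.53 (adjusted p = 0.0424, lost in 11 of 20). The list's median log2 difference was -0.19 for MSCs at day 28 against day 0 and -0.21 for chondrocytes against MSCs at day 0, beside -0.11 and -0.12 over all genes. Between the cultured groups it was -0.10, beside -0.02. There 3 of the 22 genes had an unadjusted p under 0.05 by limma, against 28.7% of all genes, and a call of 1 gene came up in 6 of 20 alternatives.

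Of 16 genes that act upstream of IGF expression, 11 were measured. By sets of highest mean and limma, 2 were higher and 0 lower in each of the comparisons with day 0. By the same sets, 0 were called between the cultured groups. Between the cultured groups 2 of the 11 had an unadjusted limma p under 0.05, against 28.7% of all genes. The shares over all genes were 13.5% higher and 21.0% lower for MSCs at day 28 against day 0. They were 8.35% and 4.81% between the cultured groups, and 15.1% and 20.9% for chondrocytes against MSCs at day 0. Both counts of 2 called against day 0 ran from 1 to 3 when 1 array was left out. With donor as a block, 5 were called in chondrocytes against MSCs at day 0 and 1 between the cultured groups. Over all probe sets, the block raised the calls in these comparisons from 7445 to 8247 and from 2482 to 3110. PLAGL1, a zinc finger transcription factor of the imprinted gene network that includes IGF2 in mice, averaged 10.16 in chondrocytes, 9.93 in MSCs at day 28 and 9.04 in MSCs at day 0. It was higher by 0.90 in MSCs at day 28 (adjusted p = 0.0120) and by 1.12 in chondrocytes (adjusted p = 0.00399) than in MSCs at day 0. STAT5B, through which growth hormone induces IGF1 in liver, was higher by 1.12 in MSCs at day 28 (adjusted p = 0.0428, lost in 11 of 20 alternatives). IGF2BP1, an RNA-binding protein that binds IGF2 mRNA, was higher by 2.04 in chondrocytes than in MSCs at day 0 (adjusted p = 0.0235, lost in 6 of 19). A further GHR set, at low signal, was lower in chondrocytes by 0.49 than in MSCs at day 28 (adjusted p = 0.0456). Against MSCs at day 0 it was lower by 0.87 (adjusted p = 0.00112). A further CEBPD set was higher by 0.90 in MSCs at day 28 than at day 0 (adjusted p = 0.0240). In chondrocytes it was higher than in MSCs at day 0 by 0.86 (adjusted p = 0.0285). Most other sets of GHR and CEBPD were not called.

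Genes known as targets of the FOXO factors, which AKT holds in the cytoplasm, were also listed, and 8 of 18 were measured. The 8 include FOXO4, itself one of the FOXO factors, so that the counts and medians below are not of targets alone. In MSCs at day 28 against day 0, 3 were higher and 0 lower, in chondrocytes against MSCs at day 28, 0 were higher and 3 lower, and in chondrocytes against MSCs at day 0, 3 were higher and 2 lower. All genes had 13.5% higher and 21.0% lower in the first comparison, 8.35% and 4.81% in the second, and 15.1% and 20.9% in the third. The list's median log2 difference was 1.07, -0.66 and 0.36 in these comparisons, beside -0.11, -0.02 and -0.12 over all genes. SESN1, a sestrin that restrains mTORC1, averaged 10.01 in chondrocytes, 10.34 in MSCs at day 28 and 8.27 in MSCs at day 0, higher by 2.07 in MSCs at day 28 (adjusted p = 7.12e-04) and by 1.74 in chondrocytes (adjusted p = 0.00186) than at day 0. Its 2 further sets, at lower signals, were not called (-0.18 and 0.22 in MSCs at day 28, -0.12 and 0.25 in chondrocytes). FBXO32, the ubiquitin ligase known as atrogin-1 in muscle, averaged 3.07 in chondrocytes, 5.66 in MSCs at day 28 and 4.97 in MSCs at day 0, and was lower in chondrocytes than in MSCs at day 28 by 2.59 (adjusted p = 0.0265, lost in 4 of 19 alternatives).

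FOXO4, the FOXO factor in this list, and KLF15, also a transcription factor, were higher in MSCs at day 28 than at day 0. The differences were 1.02 (adjusted p = 0.00416) and 1.502 (adjusted p = 0.00761). FOXO4 was lower in chondrocytes than in MSCs at day 28 by 0.95 (adjusted p = 0.0164, lost in 3 of 20 alternatives), and so was the coregulator CITED2, by 1.36 (adjusted p = 0.0280, lost in 4 of 20). PDK4, the kinase that shuts down pyruvate dehydrogenase, was higher by 2.62 in chondrocytes than in MSCs at day 0 (adjusted p = 0.00168), while its 2 further sets, at low signals, differed by 0.76 (adjusted p = 0.104) and 0.06 (adjusted p = 0.891) and were not called. The mitochondrial superoxide dismutase SOD2 was higher by 1.84 in the same comparison (adjusted p = 0.0273, lost in 6 of 20). The 2 genes called lower there were CITED2, by 1.26 (adjusted p = 0.0160, lost in 2 of 20), and FBXO32, by 1.90 (adjusted p = 0.0406, lost in 8 of 19). The measured FOXO genes thus went in both directions, and the count of 3 calls between the cultured groups was 5 with donor as a block, 0 without chondrocyte replicate 2, and 1 without chondrocyte replicate 1 or without MSC replicate 2 at day 28. Over all probe sets, calls between the cultured groups went from 2482 to 3110 with the block and to 1356 without chondrocyte replicate 2. Against MSCs at day 0, the 5 calls in chondrocytes became 2 without chondrocyte replicate 2, and 3 without either of the other chondrocyte replicates or without MSC replicate 1 or 2 at day 0. Over all probe sets, calls there went from 7445 to between 5640 and 7794 when 1 array was left out.

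**Figure D4:**
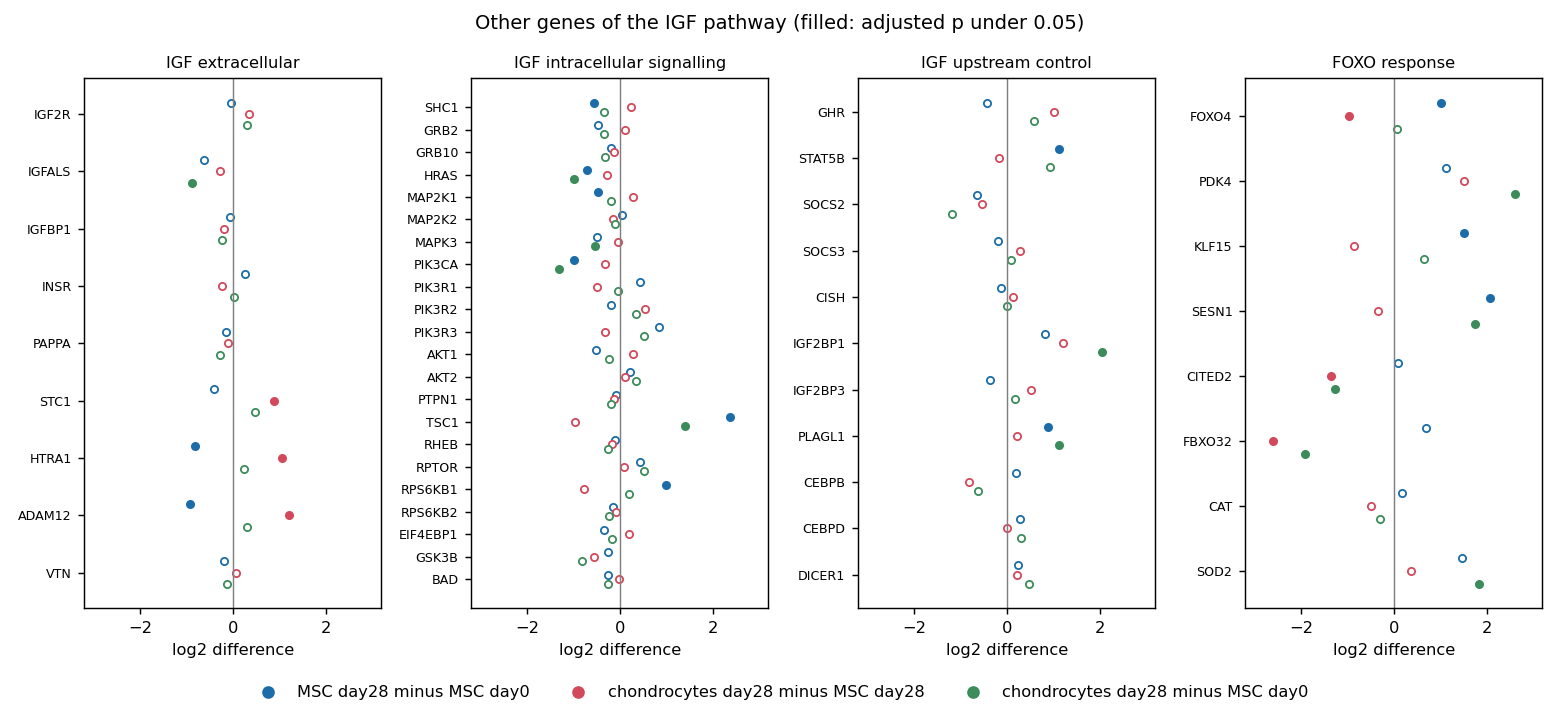
Log2 difference of other genes of the IGF system in 3 comparisons, by list, with called genes filled. HTRA1 and ADAM12 lie below 0 for MSCs at day 28 against day 0 and above 0 for chondrocytes against MSCs at day 28, and TSC1 and SESN1 lie above 0 against day 0 in both cultured groups.

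For each member, the 2 genes whose signal ran most like its own were taken by Pearson r over the 9 arrays, among 2568 genes. These values are descriptions, since the arrays fall into 3 groups and share their normalization. IGFBP5 ran most like SEMA6D (r = 0.996) and PTGES (0.990), and IGFBP4 most like ENPP5 (0.992) and MRPS22 (0.991). For the other falling genes the closest were VMA21 (0.980) and ESYT1 (0.978) with IGFBP2, ATP2C1 (0.976) and JUP (0.970) with IGFBP3, and S100A4 (0.964) and CBR3 (0.959) with IGFBP6. IGF1 ran most like VCAM1 (0.941) and C1R (0.939), both highest on average at day 0, and VCAM1 averaged 2.37 in chondrocytes, 2.21 in MSCs at day 28 and 4.85 in MSCs at day 0, where donor 2 read 7.46 against 3.40 and 3.69 in donors 1 and 3. The closest genes were less close for IGF1R, with PEAR1 (0.9004) and MET (0.833), for IGF2, with SLAMF9 (0.838) and ADAMTSL2 (0.834), and for IGFBP7, with CYP27A1 (0.817) and F2RL2 (0.795).

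The place of the genes in the genome was read from the RefSeq annotation, for the order of protein-coding genes only. IGFBP2 and IGFBP5 are direct neighbours, and these neighbours moved in opposite directions, by -4.22 and 4.996 on the log2 scale in MSCs at day 28 against day 0 and by -3.63 and 5.07 in chondrocytes against MSCs at day 0. The genes on their far sides were not called: RPL37A, next to IGFBP2, differed by -0.01 and -0.15, and TNP1, next to IGFBP5, by -0.12 and -0.11. RPL37A averaged 13.22 in chondrocytes, 13.36 in MSCs at day 28 and 13.36 in MSCs at day 0, near the top of the scale, and TNP1 averaged 2.24, 2.23 and 2.35 in these groups, near its bottom, where a change could be missed. IGFBP3 and IGFBP1 are neighbours too, and IGFBP1 averaged 2.15 in chondrocytes, 2.33 in MSCs at day 28 and 2.39 in MSCs at day 0, without a call. These signals are near the bottom of the scale as well, so that a change could be missed. INS, on one side of IGF2, was not called, and MRPL23, on the other, was lower in MSCs at day 28 than at day 0 by 0.69 (adjusted p = 0.0324), where IGF2 had no call. SPRYD3, beside IGFBP6, was higher by 0.44 in chondrocytes than in MSCs at day 0 (adjusted p = 0.0331), where IGFBP6 was lower. PMCH, beside IGF1, was lower in MSCs at day 28 than at day 0 by 1.67 (adjusted p = 0.00620), but higher in chondrocytes than in MSCs at day 28 by 2.30 (adjusted p = 0.00360), a difference for which IGF1 had no call. ADGRL3, beside IGFBP7, was higher by 0.73 in MSCs at day 28 (adjusted p = 0.0210) and by 2.11 in chondrocytes (adjusted p = 8.51e-05) than in MSCs at day 0, where IGFBP7 had no call. POLR2B, on the other side of IGFBP7, was not called. Its probe set shares a cluster number with that of IGFBP7 in their identifiers, and whether the sets share transcripts was not tested.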

How the data were processed

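RNA of 9 samples was hybridised to 1 array each. Per the labels' protocols, cDNA was primed with poly(T) and amplified before labelling, which favours 3′ ends. Per the submitters' processing notes RMA gave the deposited log2 signals, and its quantile step hides changes in total RNA. The RMA version and a genome build were not given in the sources used here. Of 24128 probe sets, 112 controls were left out. Of the 24016 tested, 13292 had 1 gene symbol in the platform annotation, 86 several and 10638 none. Gene order came from a RefSeq table of ARS-UCD2.0.

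A linear model with 3 groups was fitted with limma 3.58.1 in R 4.3.3 (lmFit, eBayes), with Benjamini-Hochberg adjustment over all probe sets, after the procedure had been tested on simulated data. The number of arrays limits the precision, and p-values measure the spread between samples of 3 calves. Arrays of the same donor pair across groups per the labels. Their deviations from group means correlated from 0.108 to 0.412 (9 pairs), against -0.303 to 0.152 between donors (18 pairs). A donor block, left-out arrays, scalings, filters, variance models and array weights were alternatives.

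The genes described, the pathway lists and the marker lists were chosen with earlier results of these data known. Every probe set of the IGF genes was named. From each pathway list the 4 called genes of smallest p per comparison were named, with any gene of the extracellular list, and for each IGF gene the 2 genes with the highest r among those whose group means span at least 1. Neighbouring genes, further probe sets of listed genes and single markers were named after their values were seen. No sequences are printed, since none were used here.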

Additional observations from a re-analysis of the deposited data

How the results depend on the processing

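Over 51 differences (17 probe sets in 3 comparisons) and up to 20 alternatives each, 12 were called throughout, 4 were called but lost in some, 7 were not called but gained a call in some, 28 were never called, and none changed sign while called. With donor as a replicate block, the counts of called probe sets of the IGF genes stayed at 8 for MSCs at day 28 against day 0, 0 for chondrocytes against MSCs at day 28 and 8 for chondrocytes against MSCs at day 0, and the block changed no call among these 51. Over all probe sets, calls with the block went from 7256 to 8070, 2482 to 3110 and 7445 to 8247 in these comparisons. For MSCs at day 28 against day 0, the count of 8 was 5 to 7 when 1 array was left out (5 without MSC replicate 2 at day 0) and 5 without both arrays of low hybridisation controls. Calls over all probe sets fell there too, from 7256 to between 5747 and 7010 when 1 array was left out. They were at least 5533 in every alternative. For chondrocytes against MSCs at day 28, the count of 0 was 0 to 1 when 1 array was left out (1, IGFBP4, without MSC replicate 3 at day 28) and 1 (IGF2) without both low arrays. In the same comparison 2482 of all probe sets were called, and 1356 to 2598 when 1 array was left out (1356 without chondrocyte replicate 2). Fewer arrays enter these fits, and no other cause was tested. The share of higher calls among all probe sets was 48.4%, 60.7% and 48.7% for MSCs at day 28 against day 0, chondrocytes against MSCs at day 28 and chondrocytes against MSCs at day 0. It was 59.8%, 76.0% and 71.6% with ribosomal protein genes as the centre of each array, a change that shifted the median difference by 0.13, 0.14 and 0.27, and 43.9%, 49.7% and 37.2% with the median of each array as its centre, which shifted it by -0.05, -0.07 and -0.12. Under both, IGFBP5 stayed the only one of these genes called higher, with 6 to 9 of the 17 sets lower against day 0. Among the other genes of the pathway, the block moved 3 counts by over 1.5 times, given with those lists. Low signal limits IGF1, IGF2 and IGF1R, whose probe sets all lie below the median.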
